A study of Mus musculus with 6 samples.

Results

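The genes described here are 10 markers of antigen-presenting cells, read in RNA from natural killer T (NKT) cells of the mouse thymus on Illumina bead arrays. They are the class II genes Cd74, H2-Aa, H2-Ab1, H2-Eb1 and Ciita, the myeloid genes Mpeg1 and Lyz2, and the B lineage genes Cd79a, Cd79b and Ly6d. All probes that the platform annotation gives to 1 of these symbols alone were taken, 19 probes of 9 genes, out of 45281 probes on the array and 19057 genes that the annotation names. Cd79a had no such probe in the annotation used here. A probe was kept when its detection p, the rank of its signal among the array's negative controls, was under 0.05 on all 3 arrays of at least 1 group. This left 9 probes of 7 genes.

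C57BL/6 mice gave the cells, which were the mature thymic NKT stage that carries both CD44 and NK1.1. The DOCK8-deficient group came from the Captain Morgan strain, whose titles call it knockout, and the other group was wild type. Each group held 3 biological replicates with 1 array each, and the labels leave out the animals' age and how many animals went into each. Every p-value therefore speaks of the spread among these 6 arrays alone. DOCK8 activates CDC42 in lymphocytes. Its own brightest probe differed by -0.01 on the log2 scale between the groups (95% interval -0.35 to 0.33, limma adjusted p = 0.991), so the grouping rests on the labels. From 16496 to 18451 probes were detected on an array. DOCK8-deficient array 2 had the fewest, and also the lowest median intensity (183, against 212 to 235 on the other 5 arrays).

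Class II molecules present peptides from engulfed material to CD4 T cells. B cells, dendritic cells, macrophages and thymic epithelium carry them, whereas mouse T cells are generally taken not to transcribe them. The alpha and beta chains are held together by the invariant chain, the product of Cd74, until a peptide is loaded, and the coactivator CIITA switches the genes of the pathway on together. CIITA acts through factors bound to paired promoter boxes, of which the Y box binds NF-Y and the X box binds the RFX complex. Mpeg1 encodes the pore-forming perforin-2 of macrophages, Lyz2 the lysozyme of macrophages and granulocytes, Cd79a and Cd79b the signalling chains of the B cell receptor, and Ly6d a surface protein of early B lineage cells.

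The promoters of H2-Aa and H2-Eb1 are shown because both chain genes were kept and their promoters hold the same letters at both boxes. They come from RefSeq, build GRCm38.p6, whose promoter table held 5 of the 10 genes, and cover 250 bases before to 50 bases after the gene start. H2-Aa lies at chr17:34287774-34288073 on the minus strand and H2-Eb1 at chr17:34305617-34305916 on the plus strand. Capitals mark GCAAC, letters found in the X box, and CTGATTGG, a run around the Y box that a search found to be shared by the promoters.
H2-Aa: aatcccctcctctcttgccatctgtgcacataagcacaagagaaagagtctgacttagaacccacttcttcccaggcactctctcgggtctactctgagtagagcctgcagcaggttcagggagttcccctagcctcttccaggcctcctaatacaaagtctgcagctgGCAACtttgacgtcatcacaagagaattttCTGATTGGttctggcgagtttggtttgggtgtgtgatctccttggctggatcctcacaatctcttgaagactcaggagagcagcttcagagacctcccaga
H2-Eb1: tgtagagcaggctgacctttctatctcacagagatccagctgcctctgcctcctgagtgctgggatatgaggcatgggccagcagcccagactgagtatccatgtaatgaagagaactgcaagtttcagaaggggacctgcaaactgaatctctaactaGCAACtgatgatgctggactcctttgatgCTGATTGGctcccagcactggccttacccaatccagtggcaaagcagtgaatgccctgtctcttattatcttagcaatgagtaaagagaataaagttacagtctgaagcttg
CTGATTGG starts at position -51 in H2-Aa and -62 in H2-Eb1, counted from the gene start, and GCAAC starts 30 and 29 bases upstream of it. On either strand, CTGATTGG is in 4.1% and GCAAC in 35.2% of the 32851 promoters of the table. GCAAC at 1 of these 2 distances upstream of CTGATTGG was found in 5 of them, those of H2-Aa, H2-Eb1, H2-Eb2, H2-Oa and Stard7. The letters and distances were taken from the H2-Aa and H2-Eb1 promoters, so the count describes them and tests nothing. The promoters of Mpeg1, Lyz2 and Cd79a hold no CTGATTGG in this window.

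Signal of the antigen-presenting cell genes was close to the background of the arrays. The kept probes read from 1.07 to 1.78 times the median intensity of the undetected probes on the same array. On 53 of their 54 array values the detection p was under 0.05, the exception being Ly6d on DOCK8-deficient array 3. Of the 10 probes not kept, 6 were detected on fewer than 3 arrays and were not tested. They were the third Cd74 probe, both Ciita probes, the second Mpeg1 probe, the third Lyz2 probe and the second Cd79b probe, and 1 of their 36 array values passed detection, that of a Ciita probe on wild type array 2. The other 4, the dimmest H2-Ab1 probe, the second probes of Lyz2 and Ly6d, and the brighter Cd79b probe, were detected on 3 or 4 arrays but not on every array of either group. In a bulk sample, fewer cells of a type and less RNA per cell cannot be told apart.

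**Figure D1:**
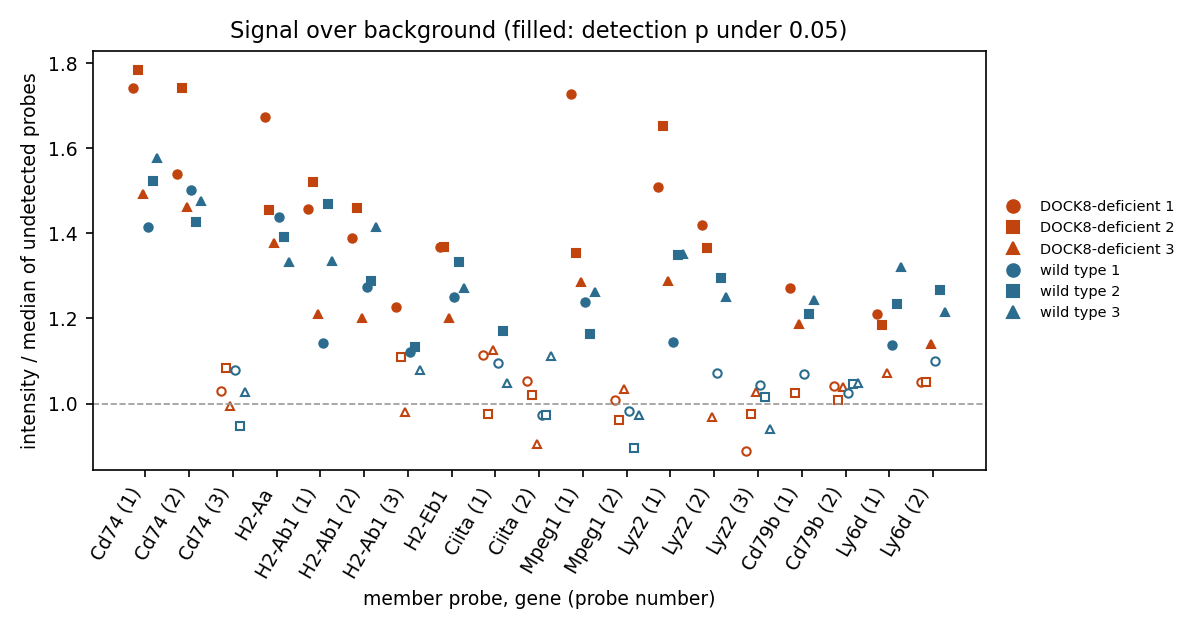
Intensity of each of the 19 member probes on each array, divided by the median intensity of the undetected probes of that array (linear axis); filled points have a detection p under 0.05. The kept probes lie between 1.07 and 1.78, and the dashed line at 1 marks the background.

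No kept probe separated the groups in the test. The test was limma on normalised log2 intensities, 2-sided, over the 14559 named probes detected on at least 3 of the 6 arrays, with Benjamini-Hochberg adjusted p under 0.05 as the threshold. Of the 9 kept probes, 0 passed and 1 had an unadjusted p under 0.05, where 0.213% of all tested probes passed (0.131% higher and 0.0824% lower in DOCK8-deficient cells) and 10.1% had an unadjusted p under 0.05. The 6 class II probes and the 2 myeloid probes had higher means in DOCK8-deficient cells and the Ly6d probe a lower one, with a median difference of 0.30 on the log2 scale. Over all tested probes 48.0% were higher and the median was -0.01. Without DOCK8-deficient array 2 only 4 of the 9 kept probes were higher, and of the 6 class II probes 2.

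Cd74 was the first of the class II genes, the invariant chain. Its brighter kept probe (ILMN_1221817) read 7.10, 7.83 and 6.91 on DOCK8-deficient arrays 1, 2 and 3 and 6.90, 7.03 and 6.81 on wild type arrays 1, 2 and 3, on the normalised log2 scale. DOCK8-deficient array 2 stood above the other 5 arrays, which lay close together, and the groups overlapped. The means were 7.28 ± 0.48 and 6.91 ± 0.11 (SD, n = 3 each), a difference of 0.36 ± 0.24 SE (95% interval -0.18 to 0.91, limma adjusted p = 0.665). Without DOCK8-deficient array 2 the difference was 0.09. The other kept Cd74 probe (ILMN_3089584) read 6.70, 7.76 and 6.84 against 7.15, 6.79 and 6.58, again highest on DOCK8-deficient array 2. Its difference was 0.26 (95% interval -0.41 to 0.93, adjusted p = 0.819), or -0.07 without that array.

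H2-Aa encodes the alpha chain of the class II molecule I-A. It read 6.97, 7.12 and 6.59 on the DOCK8-deficient arrays and 6.98, 6.68 and 6.15 on the wild type arrays. The groups overlapped, the lowest value was that of wild type array 3, and the SD was 0.27 in DOCK8-deficient and 0.42 in wild type cells. The difference was 0.30 ± 0.24 SE (95% interval -0.25 to 0.85, adjusted p = 0.735). It was 0.069 without wild type array 3, 0.18 without DOCK8-deficient array 2 and 0.48 without wild type array 1.

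H2-Ab1 encodes the beta chain of I-A and had 2 kept probes. The brighter (ILMN_1226525) read 6.51, 7.30 and 5.93 on the DOCK8-deficient arrays and 5.65, 6.90 and 6.15 on the wild type arrays. High and low arrays were found in both groups. The other (ILMN_2631423) read 6.30, 7.14 and 5.88 against 6.38, 6.33 and 6.41, so the wild type arrays had an SD of 0.04 and the DOCK8-deficient arrays one of 0.64. The differences were 0.34 (95% interval -0.58 to 1.27, adjusted p = 0.825) and 0.07 (-0.60 to 0.74, adjusted p = 0.961). The dimmest H2-Ab1 probe, tested but not kept, differed by -0.09. Without DOCK8-deficient array 2 the kept probes read -0.02 and -0.28.

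H2-Eb1 encodes the beta chain of the other class II molecule, I-E. It read 6.25, 6.86 and 5.88 on the DOCK8-deficient arrays and 6.28, 6.48 and 5.94 on the wild type arrays. DOCK8-deficient array 2 was again the highest and the groups overlapped, and the difference was 0.09 ± 0.26 SE (95% interval -0.51 to 0.70, adjusted p = 0.938). Without that array it was -0.17. C57BL/6 mice are known not to bear I-E on the surface, because their alpha chain gene is defective, whereas the beta chain is transcribed.

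**Figure D2:**
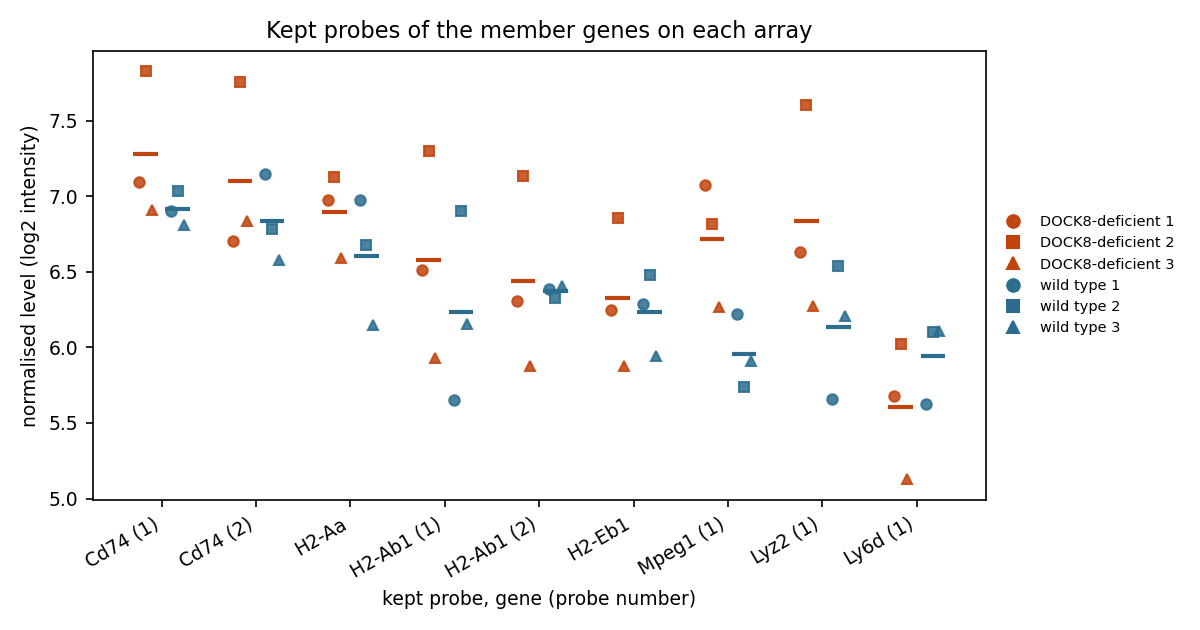
Normalised log2 level of the 9 kept probes on each of the 6 arrays, with horizontal lines at the group means; shapes give the replicate number and probes of a gene are numbered by brightness. DOCK8-deficient array 2 (orange squares) is the highest point for all 6 class II probes and for Lyz2, and Mpeg1 is the probe whose groups do not overlap.

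The class II probes shared their highest array. All 6 were highest on DOCK8-deficient array 2, whereas 17.4% of tested probes were highest there. They come from 4 genes, with Cd74 and H2-Ab1 represented by 2 probes each, so they are not 6 independent readings. Their median deviation from each probe's mean was 0.73 on that array, -0.02 and -0.29 on DOCK8-deficient arrays 1 and 3, and from -0.31 to -0.01 on the wild type arrays. The summed level of the 6 probes, on a linear scale with the offset removed, was 517, 902 and 413 on the DOCK8-deficient arrays and 503, 537 and 400 on the wild type arrays. The highest array depended on the scale. All 6 were highest on DOCK8-deficient array 2 without background correction and in the deposited log2 table, and 3 of the 6 with median scaling. Of intensities over the background of each array, 4 were highest on that array and 2 on DOCK8-deficient array 1. The margin depended on the scale as well. Over background the brighter Cd74 probe read 1.78 on DOCK8-deficient array 2 and 1.74 on array 1, and H2-Aa read 1.46 and 1.67. With median scaling 1.39% and over background 1.72% of tested probes were highest on that array, which is the dimmest.

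The median SD of the 9 kept probes was 0.50 in DOCK8-deficient and 0.28 in wild type cells, and for H2-Aa the wild type SD was the larger. It was also larger in DOCK8-deficient cells over all tested probes, at 0.21 and 0.18. Tested probes in the same range of mean levels, 3474 in number, had a median SD of 0.30 and 0.25. Of the 9 kept probes, 7 were highest on DOCK8-deficient array 2, and Cd74 and H2-Ab1 count with 2 probes each. Of all tested probes 17.4% were highest there, and 18.8% of those in the same range.

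Mpeg1 was the kept probe with the smallest p. It read 7.07, 6.82 and 6.27 on the DOCK8-deficient arrays and 6.22, 5.74 and 5.91 on the wild type arrays. The groups did not overlap, by a margin of DOCK8-deficient array 3 over wild type array 1, and 15.9% of all tested probes were without overlap in either direction (7.97% with the DOCK8-deficient group higher). The means were 6.72 ± 0.41 and 5.96 ± 0.25 (SD, n = 3 each), 1.70-fold apart (log2 difference 0.76 ± 0.23 SE, 95% interval 0.23 to 1.30). It did not pass over all probes (limma adjusted p = 0.315, unadjusted p = 0.0109), nor under any alternative (adjusted p from 0.241 to 0.986). Without background correction or in the deposited table the fold was smaller, and 0.23 was the smallest log2 difference under any processing choice. Its second probe was undetected on all 6 arrays.

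Lyz2 was read by a kept probe at 6.63, 7.60 and 6.28 on the DOCK8-deficient arrays and 5.66, 6.54 and 6.21 on the wild type arrays. DOCK8-deficient array 2 was again the highest, and wild type array 1 the lowest. The difference was 0.70 ± 0.36 SE (95% interval -0.12 to 1.53, adjusted p = 0.561), and 0.32 without DOCK8-deficient array 2. A second probe, detected on 4 arrays, read 6.40, 6.85 and 4.70 against 5.18, 6.36 and 5.87, a difference of 0.18 (adjusted p = 0.941). Lyz1 encodes a closely related lysozyme, and the array may not tell the copies apart. Its brightest probe, named after its values were seen, read 8.94, 9.35 and 7.91 against 7.83, 8.35 and 7.99, a difference of 0.68 (95% interval -0.12 to 1.47, adjusted p = 0.565). On the normalised scale its highest array was the same as that of Lyz2. Over background it was highest on DOCK8-deficient array 1 (3.84, against 3.38 on array 2), whereas the kept Lyz2 probe was highest on array 2 (1.65). The other 2 probes of Lyz1 were undetected on all 6 arrays.

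**Figure D3:**
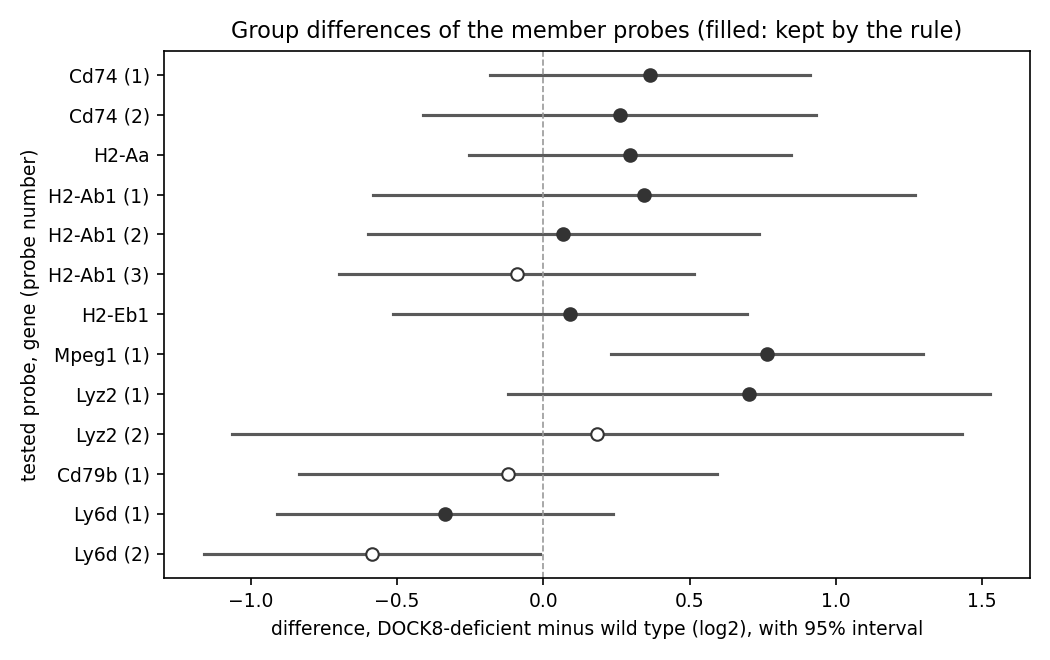
Difference between the groups (DOCK8-deficient minus wild type, log2) with its 95% interval from limma for the 13 tested member probes; filled points were kept by the detection rule. The interval of the Mpeg1 probe (0.23 to 1.30) and that of a Ly6d probe not kept by the rule (-1.16 to -0.01) leave out 0, and the others include it.

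Of the B lineage genes Ly6d alone had a kept probe. Ly6d was kept through the wild type arrays, all of which detected it, against 2 of the 3 DOCK8-deficient arrays, so its presence among the kept probes depends on the group where it is higher. It read 5.68, 6.02 and 5.13 on the DOCK8-deficient arrays and 5.62, 6.10 and 6.11 on the wild type arrays. The groups overlapped, and the difference was -0.34 ± 0.25 SE (95% interval -0.91 to 0.24, adjusted p = 0.706). It was -0.097 without DOCK8-deficient array 3 and -0.54 without DOCK8-deficient array 2. The second Ly6d probe, detected on 3 arrays, read 4.99, 5.04 and 5.53 against 5.36, 6.24 and 5.73, a difference of -0.59 (unadjusted p = 0.046, limma adjusted p = 0.487). The brighter Cd79b probe read 5.92, 4.92 and 5.80 against 5.17, 5.98 and 5.84 and was undetected on DOCK8-deficient array 2 and wild type array 1. Its difference was -0.12 (95% interval -0.84 to 0.59, adjusted p = 0.932), and the other Cd79b probe was undetected throughout.

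Of 23 genes for peptide loading, transcription of the chains and costimulation, 16 were tested, and 10 were higher and 6 lower in DOCK8-deficient cells, with a median of 0.04 beside -0.01 over all tested probes. In limma 0 passed over all probes and 1 had an unadjusted p under 0.05, against 10.1% of all tested probes. It was H2-Oa, which encodes a chain of the loading modulator DO. H2-Oa read 5.03, 5.54 and 5.40 against 5.60, 6.05 and 5.86, and was detected on 1 of the 3 DOCK8-deficient arrays (difference -0.51, adjusted p = 0.418). All 3 wild type arrays detected H2-Oa, so its presence among the tested probes depends on the group where it is higher. H2-DMa, a chain of the loading catalyst DM, read 8.10, 8.56 and 8.37 against 9.09, 8.46 and 8.77. Its groups overlapped, and the difference was -0.43 (95% interval -0.89 to 0.04, adjusted p = 0.532).

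Genes of antigen processing detected on all 6 arrays included Ctss, the protease cathepsin S that trims the invariant chain, and Ifi30, a lysosomal thiol reductase. Ctss was highest on DOCK8-deficient array 2 (9.76, against 9.30 and 8.87 on the others of its group and 8.63 to 9.23 on wild type arrays), with a difference of 0.29 (adjusted p = 0.765). Of all tested probes, 17.4% were highest on that array. Ifi30 differed by -0.01 (adjusted p = 0.986). Among regulators, Rfxap of the RFX complex differed by 0.06 and the NF-Y chain genes Nfyb and Nfyc by 0.06 and 0.04, while Creb1 differed by -0.16. Nfya, the other NF-Y chain gene, and the costimulatory receptor gene Cd40 were each detected on 5 arrays and are named after their values were seen. Nfya differed by -0.43 (adjusted p = 0.569) and Cd40 by -0.54 (adjusted p = 0.622). Cd86, a costimulatory ligand, differed by 0.29 (adjusted p = 0.697). The RFX gene Rfx5 was undetected on every array.

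Of 31 marker genes of myeloid and dendritic cells, 29 had a probe and 10 were tested, and 13 were detected on no array. Of the 10, 1 passed the test, beside 0.213% of all tested probes. Undetected on every array were Itgam, Cd14, Cybb, Spi1, Fcgr1, Flt3, Zbtb46, Xcr1 and Clec9a. They include integrin, oxidase and transcription factor genes of macrophages and receptors of classical dendritic cells. Other markers on the list, named after their values were seen, were detected on some arrays but not tested. Adgre1 was detected on 2 arrays, and Itgax, Clec7a, C1qc, Cd83 and Sirpa on 1 each. Of the 10 tested, 6 were higher and 4 lower in DOCK8-deficient cells, with a median of 0.20 beside -0.01 over all tested probes. An unadjusted p under 0.05 was found for 6 of them, 4 higher and 2 lower, where 10.1% of all tested probes had one. The summed level of the list, in which the bright genes Cst3 and Cebpb weigh most, was 5518 to 5875 on DOCK8-deficient and 5424 to 5971 on wild type arrays. The median deviation from each probe's mean weighs the genes alike. It was 0.09, 0.13 and -0.02 on the DOCK8-deficient arrays and -0.14, -0.13 and -0.10 on the wild type arrays. The part of myeloid cells in the Mpeg1 and Lyz2 values was not tested.

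Of the tested myeloid genes, Tlr7 alone passed. Tlr7, the endosomal receptor for single-stranded RNA, fell: it read 7.03, 7.27 and 6.82 against 8.82, 8.18 and 8.64, without overlap (log2 difference -1.51 ± 0.20 SE, limma adjusted p = 0.0462). The call was lost when any of the 6 arrays was left out (differences from -1.69 to -1.37, limma adjusted p from 0.0981 to 0.23) and without the filter on dim probes (adjusted p = 0.0607). Fcgr3, an Fc receptor that NK-type lymphocytes also express, read 7.16, 6.72 and 7.38 against 6.27, 6.42 and 6.03, a difference of 0.84 that did not pass (adjusted p = 0.185). Irf8, a transcription factor of dendritic cells and B cells, differed by 0.42 (adjusted p = 0.447) and Siglech, a lectin of plasmacytoid dendritic cells, by 0.23. Siglech was highest on DOCK8-deficient array 2 (9.72, against 8.94 to 9.42 on the other 5 arrays), as were 17.4% of all tested probes. Cst3, which encodes cystatin C, differed by 0.17 and the transcription factor gene Cebpb by -0.17. Cst3 was also highest on DOCK8-deficient array 2. Irf8 and Fcgr3 were highest on DOCK8-deficient array 3, Tlr7 on wild type array 1 and Cebpb on wild type array 2. Csf1r, the receptor for macrophage growth factor, named after its values were seen, was detected on 2 DOCK8-deficient arrays and 1 wild type array, and differed by -0.16.

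Of 22 B cell marker genes, 18 had a probe and 4 were tested, and the defining genes Ms4a1 and Pax5 were undetected on every array, as were Blnk, Vpreb3, Cr2, Pou2af1 and Fcmr. Among the untested genes, Tnfrsf13c was detected on 2 arrays and Vpreb1, Igll1, Cd22, Fcrla, Bank1 and Spib on 1 each. Of the 4 tested, 2 were higher and 2 lower and 0 passed in limma, with 0 at an unadjusted p under 0.05. Ebf1, named after its values were seen, was detected on 4 arrays. It read 5.78, 5.69 and 5.29 against 5.28, 6.00 and 5.55 (difference -0.02, adjusted p = 0.987). Cd72, an inhibitory B cell receptor, read 6.06, 6.56 and 6.91 against 6.07, 6.20 and 6.14 (difference 0.37, adjusted p = 0.618). Rag1, the recombinase gene of immature B and T cells, read 7.58, 7.10 and 6.06 against 7.03, 7.35 and 7.83 (difference -0.49, adjusted p = 0.723). Blk, a Src family kinase gene of B cells that some T cells also use, had a probe detected on all 6 arrays, which read 5.84, 5.79 and 7.08 against 6.57, 5.64 and 5.64 (difference 0.29, adjusted p = 0.857). The counts above used the brightest Blk probe instead, which was detected on 4 arrays and differed by 0.0006. Another Blk probe was undetected on every array.

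Of the granulocyte markers, S100a8 and S100a9 split the arrays in a way that crossed the groups. S100a8, a calcium-binding protein abundant in neutrophils, read 4.68, 8.80 and 5.39 on the DOCK8-deficient arrays and 9.07, 4.72 and 8.95 on the wild type arrays. It was detected on DOCK8-deficient array 2 and wild type arrays 1 and 3, and undetected on the other 3. Its partner S100a9 read 4.74, 7.40 and 4.65 against 7.44, 4.96 and 7.03, on the same arrays. The scanner intensity of S100a8 was 451, 622 and 814 where it was detected and 196 to 242 elsewhere. The group differences, -1.29 for S100a8 and -0.88 for S100a9, had adjusted p of 0.807 and 0.788. Of the 10 granulocyte genes 3 were tested, the third being Csf3r, and Ngp, Camp, Mpo and Cxcr2 were undetected on every array. The remaining genes were not tested: Elane was detected on 2 arrays and Ltf and Lcn2 on 1 each. Csf3r was detected on 5 arrays and did not show this split. It read 5.18, 6.00 and 6.31 against 6.42, 5.68 and 5.72 (difference -0.11, adjusted p = 0.938).

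DOCK8-deficient array 2 had the highest class II sum and also S100a8 and S100a9. Wild type arrays 1 and 3 had S100a8 and S100a9 at summed levels of 680 and 592, close to the 582 of DOCK8-deficient array 2, while their class II sums were 503 and 400 and their Mpeg1 and Lyz2 sums 93.2 and 102. DOCK8-deficient array 1 had the second highest Mpeg1 and Lyz2 sum, 202, with an S100a8 and S100a9 sum of 20.4. The part of granulocytes in the class II values was not tested.

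**Figure D4:**
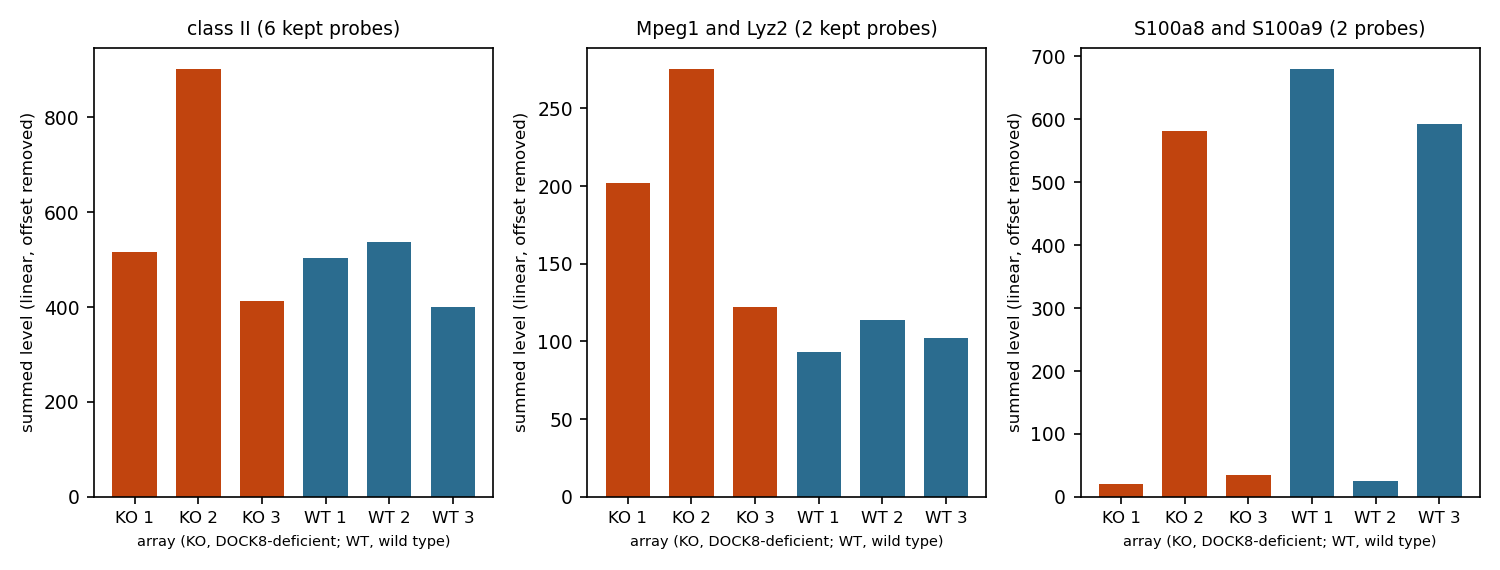
Summed normalised level (linear scale, offset removed) on each array for the 6 kept class II probes, the kept Mpeg1 and Lyz2 probes, and the S100a8 and S100a9 probes; bars start at 0 and colours give the group. On this scale the class II sum reaches 902 on DOCK8-deficient array 2 and lies between 400 and 537 elsewhere. S100a8 and S100a9 reach 582 to 680 on that array and on wild type arrays 1 and 3. The margin of array 2 in the class II sum depends on the scale.

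Thymic epithelium, which also bears class II, was read by 12 genes, of which 3 were tested and 8 were detected on no array. The undetected genes included Epcam, Krt5, Foxn1 and Psmb11, which mark epithelial identity. The keratin gene Krt8 was detected on 3 arrays and differed by -0.02 (adjusted p = 0.987), and Aire, a regulator of medullary epithelium, was detected on 2 and not tested; both are named after their values were seen. Ccl25, the chemokine that draws progenitors to the thymus, was detected on all 6 arrays and differed by 0.32 (adjusted p = 0.687). Ly75, the receptor DEC-205 that dendritic cells also bear, read 5.40, 5.02 and 5.42 against 6.02, 5.92 and 6.51. It was detected on 1 of the 3 DOCK8-deficient arrays, the groups did not overlap, and the difference of -0.87 did not pass (adjusted p = 0.17). Ly75 too was tested through the 3 wild type arrays, all of which detected it and where it is higher. Markers of the labelled cells were detected. All 12 NKT and T cell markers were tested, 10 of them detected on every array, and Cd3e, Cd44 and Klrb1c, which encodes NK1.1, differed by -0.06, 0.04 and 0.10 (adjusted p from 0.896 to 0.947). The 2 of smallest p on that list were Nkg7, a cytotoxic granule gene, at 0.19 (adjusted p = 0.704) and Slamf6, a SLAM receptor gene, at 0.46 (adjusted p = 0.744).

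Profiles over the 6 arrays were compared with those of 3 probes, the brightest of Cd74, Mpeg1 and Cd79b, the last of them not kept. Likeness was the root mean square difference of log2 levels after centring each probe on its mean, over 14559 probes. Nearest to Cd74 were Mea1 (0.11), the integrin gene Itga6 (0.12) and the cell cycle transcription factor gene Foxm1 (0.12), where Cd74 itself ranged over 1.02. Nearest to Mpeg1 were Ifi214 (0.13), Klrk1, which encodes the receptor NKG2D (0.17), and Dennd4a (0.18). Nearest to Cd79b were Terf2ip (0.07), Scn4b (0.11) and 4833439L19Rik (0.11).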

How the data were processed

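RNA from 3 samples of each group was read on Illumina mouse arrays after biotin labelling of cRNA, per the labels' protocols. The deposited scanner table holds, per the file headers, an intensity and a detection p-value for 45281 probes per array, and its intensities are linear and not normalized. The authors' deposited series table holds log2 values, as judged from their range. No source used here states its normalization, and its probes are not centred and run in the direction of the intensities. Array medians of the log2 values lie between 6.14 and 6.22.

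The neqc function (limma 3.58.1 under R 4.3.3) subtracted background, added an offset of 16 and equalised the arrays' quantiles. It infers negative controls from the detection p-values. Of the probes 34885 carried 1 symbol in the platform annotation, 18 several and 10378 none; only the first were used, and gene identifiers of 34807 matched RefSeq (GRCm38.p6). Probes with a detection p under 0.05 on at least 3 of the 6 arrays, in any group, were fitted by group (lmFit, eBayes), DOCK8-deficient minus wild type. For genes in marker lists, the tested probe of highest mean was used. The member genes and lists were chosen with earlier results of these data known. The rule for names took all member probes, the changed members and the 2 of smallest p of each list, the myeloid, B cell and class II pathway genes detected on all arrays, and the 3 nearest profiles of Cd74, Mpeg1 and Cd79b. The script was tested on simulated data. Alternatives covered background correction, scaling, the log2 table, filters, 1 probe a gene, the prior, the replicate block and each array left out. The number of arrays limits the precision. Replicate numbers are shared by the groups, and over all tested probes same-numbered arrays did not deviate together.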

Additional observations from a re-analysis of the deposited data

How the results depend on the processing

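In limma 0 kept member probes passed in the reported fit and under each of the 15 alternatives. The count of all tested probes that passed was 31 (19 higher and 12 lower), and it depended on the processing: 155 without background correction, 62 with median scaling (29 higher and 33 lower), 112 in the deposited log2 table, 9 without a filter on dim probes, 50 with the stricter filter, 50 with the members' filter applied to all probes and 191 with a trended robust prior. With an array left out it was 1 to 16. With the replicate block 0 passed, with 1236 at an unadjusted p under 0.05. Over all tested probes, correlations of same-numbered arrays' deviations were 0.03, -0.09 and -0.25. Those of differently numbered arrays ranged from -0.22 to 0.33. The block lowered the SE of every kept probe, from 0.40 to 0.23 for the brighter H2-Ab1 probe and from 0.36 to 0.24 for Lyz2. It changed no call among the kept probes, and whether the numbers pair the samples was not tested. Tlr7 passed under 7 of 15 alternatives, and did not pass with the block (adjusted p = 0.191). Over the 9 alternatives that change the values or the arrays, and so can move a difference, 74 of 81 differences of kept probes kept their direction and 7 did not. With median scaling H2-Ab1 read -0.048 on its second kept probe and H2-Eb1 -0.016. With an array left out, the differences ranged from -0.069 to 0.46 for the second Cd74 probe, from -0.017 to 0.68 and -0.28 to 0.35 for the H2-Ab1 probes, and from -0.17 to 0.32 for H2-Eb1. Among probes not kept they ranged from -0.31 to 0.19 for H2-Ab1, from -0.25 to 0.83 for Lyz2 and from -0.37 to 0.19 for Cd79b. The kept probes lay near background, which limits the precision of every difference. The cause of these dependences was not tested.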

Other observations

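Of the genes that link interferon gamma to class II, 9 were tested. All 9 were detected on every array, 6 were higher and 3 lower in DOCK8-deficient cells, and the median difference was 0.05 beside -0.01 over all tested probes. In limma 0 passed and 1 had an unadjusted p under 0.05, close to the 10.1% of all tested probes. It was Ifng, the inducer of CIITA in many cell types. Ifng read 12.03, 11.90 and 12.15 on the DOCK8-deficient arrays and 11.27, 11.95 and 11.31 on the wild type arrays, a difference of 0.51 (adjusted p = 0.459). The kinase gene Jak1 differed by -0.18 (adjusted p = 0.771).

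The brightest Blk probe, named after its values were seen, read 5.98, 5.25 and 7.67 on the DOCK8-deficient arrays and 7.51, 6.32 and 5.06 on the wild type arrays, so both of its highest values lay on DOCK8-deficient array 3 and wild type array 1. On the first of these S100a8 was undetected and on the second it was detected. Ctsh, a lysosomal protease gene from the myeloid list, was detected on all 3 DOCK8-deficient arrays and on no wild type array. Its presence among the tested probes therefore depends on the group where it is higher. On the normalised scale its log2 difference was 0.82 (95% interval 0.22 to 1.42, limma adjusted p = 0.333), which did not pass. The DOCK8-deficient mean was 1.31-fold above the lowest detected signal, or 0.39 on the log2 scale. That value leaves out the spread among arrays, and the lower end of the interval lies below it. Without background correction the log2 difference of Ctsh was 0.20, also below 0.39. Fcgr2b and C1qb, also named after their values were seen, complete the genes of the myeloid list with an unadjusted p under 0.05. Fcgr2b, the inhibitory Fc receptor gene, differed by -0.74 (adjusted p = 0.409) and C1qb, of complement, by 0.63 (adjusted p = 0.447). C1qb was detected on 2 DOCK8-deficient arrays and 1 wild type array. Of the related genes on the list, C1qa was detected on no array and C1qc on 1.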
